A study of Mus musculus with 23 samples.

Results

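The genes examined here are 10 genes of the endothelium, the cell layer that lines blood vessels. Of these, 5 are regulators: Aplnr, the receptor for apelin, and the transcription factors Sox17, Sox18, Klf2 and Klf4. The other 5 are identity markers: the receptor tyrosine kinases Kdr, Tie1 and Tek, the junction cadherin Cdh5 and the adhesion molecule Pecam1. Members were taken as every probe set whose symbol in the platform annotation is exactly one of these names, which gave 10 of the 12393 genes on the array and 14 of the 22626 probe sets that are not array controls. Aplnr, Sox17, Klf4 and Cdh5 have 2 probe sets each, and the other genes have 1. Probe sets of 1 gene read the same transcript pool and are not replicates.

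Aplnr is a G-protein-coupled receptor that is abundant on venous and capillary endothelium and takes part in vessel growth and tone. Sox17 and Sox18, with Sox7, form the SoxF family, which directs arterial, venous and lymphatic differentiation. Klf2 and Klf4 are zinc finger factors induced in endothelium by laminar blood flow through a MEK5, ERK5 and MEF2 kinase pathway, and they raise genes of a quiescent, anticoagulant vessel wall. Kdr is the main receptor for VEGF-A, Tek (also called Tie2) is the receptor for angiopoietins and Tie1 is its partner. Cdh5 and Pecam1 hold endothelial cells to each other and serve as markers of the cell type. In skeletal muscle most endothelial cells belong to the capillaries between the fibres.

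The study measured muscle RNA from female C57BL/6J mice, with an age of 77 days given for every sample, on 23 arrays in 5 groups. In the flight experiment the gastrocnemius was taken from mice kept in space for 11 days and 19 h (4 arrays) and from ground mice housed over the same time in the animal enclosure module, AEM, the cage used in flight (4 arrays). In the second experiment calf muscle was taken from untreated mice housed 3 per cage (control, 5 arrays), from mice with unloaded hindlimbs after 12 days of tail suspension (suspension, 5 arrays), and from mice that bore weight again for 3.5 h after 12 days of suspension (reloaded, 5 arrays). No group carries a transgene or a deletion. The sample titles, source names and group sizes gave the groups. For the flight experiment the longer sample descriptions go against the titles, those of spaceflight and AEM being swapped. Groups by those descriptions would turn the sign of each flight difference. The labels do not say that arrays of a group come from separate animals, so the p-values measure the spread between arrays, which may be technical.

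The values are log2 signals deposited by the authors, from 2.49 to 14.2 over the table. The spread between the quartiles of an array ran from 2.75 to 2.91 in the flight experiment and from 2.20 to 2.46 in the calf experiment, so levels were not set against each other across the experiments. All arrays correlated with the rest of their group at a median of at least 0.984, the lowest being suspension array 8. Myofibre markers had a mean log2 signal of 13.4 to 13.5 in every array, and 20 of 24 further endothelial markers had a probe set, with all 20 above the filter on low values. Differences were tested with limma on the 14849 probe sets with a log2 value over 5.83 on 4 or more arrays, a cutoff set at the 40th percentile and not a detection limit, with p-values adjusted by Benjamini-Hochberg and calls made under 0.05. All 14 member probe sets entered the tests.

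Spaceflight muscle had less signal than AEM muscle for Aplnr, Sox18, Klf2 and Klf4, and by a smaller amount for Kdr. Sox18 fell 2.17-fold, Klf4 1.88-fold, Klf2 1.47-fold and Kdr 1.25-fold. Aplnr fell at least 2.02-fold at 1 of its 2 probe sets, counted down to the filter value under which its spaceflight signal lay. In counts, 5 of 8 regulator probe sets and 1 of 6 identity probe sets were lower, and none was higher. The remaining 8 member probe sets, among them both of Sox17, both of Cdh5 and those of Tie1, Tek and Pecam1, did not pass the test. Of all 14849 probe sets, 945 were called, 483 higher and 462 lower, which is 6.36%. The median difference was -0.28 over the 14 member probe sets and -0.02 over all tested. The members were chosen with earlier results of these data known. Their counts and medians beside those of all probe sets are therefore descriptions. The muscle was measured in bulk. Fewer endothelial cells, less RNA per endothelial cell and a change in other cells of the muscle therefore cannot be told apart.

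The first Aplnr probe set, 1438651_a_at, read 6.68, 6.91, 6.86 and 6.96 in AEM arrays 1 to 4. In spaceflight arrays 8, 9, 10 and 11 it read 5.18, 5.58, 5.77 and 5.16. The highest spaceflight value lay far under the lowest AEM value, so the groups did not overlap. The fitted difference was -1.43 ± 0.13 on the log2 scale (SE, limma adjusted p = 0.000167). Each of the 4 spaceflight values lay under the filter value of 5.83, so the probe set passed the filter through the other groups, and the size of the fitted difference is uncertain. Down to the filter value the AEM mean fell by 1.02, which is at least 2.02-fold.

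The other Aplnr probe set, 1423037_at, did not show a change of that size. It read 5.83, 6.16, 6.15 and 5.79 in AEM arrays and 5.59, 5.64, 5.63 and 6.05 in spaceflight arrays 8 to 11. The groups overlapped through spaceflight array 11, which stood above the other 3. The difference was -0.26 ± 0.12 (95% interval -0.52 to 0.01, limma adjusted p = 0.254). The AEM mean of this probe set was 5.98, close to the filter value of 5.83. That value is not a detection limit, so whether the probe set could show a larger fall is not known. Its interval ends at -0.52 and does not reach the -1.02 counted for the first probe set. The 2 probe sets thus disagree on the size of the fall. The 2 probe sets tracked each other weakly, with r = 0.13 over the 23 arrays after each group was centred on its mean, so the Aplnr call rests on 1 of 2 probe sets.

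Sox18, the SoxF factor of vascular and lymphatic development, read 7.88, 7.67, 8.01 and 8.24 in AEM arrays 1 to 4 and 6.57, 6.73, 7.24 and 6.77 in spaceflight arrays 8 to 11. The groups did not overlap, and spaceflight array 10 was the highest of its group. The difference was -1.12 ± 0.15 (limma adjusted p = 0.000833). Sox17, a factor of arterial endothelium, gave no such shift. Its probe set 1421657_a_at ran from 6.18 to 6.47 in AEM and from 6.19 to 6.54 in spaceflight, a difference of 0.09 (95% interval -0.12 to 0.29, limma adjusted p = 0.662). Its probe set 1429177_x_at gave 0.10 (95% interval -0.19 to 0.40, limma adjusted p = 0.716). Both intervals lie above the fitted falls of Aplnr, Sox18, Klf2 and Klf4, but the Sox17 pair tracked each other weakly (r = 0.17 over 23 arrays, groups centred).

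Klf2 read 8.48, 8.60, 8.78 and 8.75 in AEM arrays 1 to 4 and 8.12, 8.19, 7.97 and 8.11 in spaceflight arrays 8 to 11. Every spaceflight value lay under every AEM value, and the spread within each group was small (SD 0.14 and 0.09). The difference was -0.56 ± 0.09 (limma adjusted p = 0.0029). With one estimate of spread over all 23 arrays the adjusted p was 0.0633.

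Klf4 was read by 2 probe sets that tracked each other across arrays (r = 0.82 over 23 arrays, groups centred). Probe set 1417394_at read 7.93, 8.11, 8.14 and 8.08 in AEM arrays 1 to 4 and 7.48, 7.59, 6.59 and 6.95 in spaceflight arrays 8 to 11. The groups did not overlap, and spaceflight arrays 10 and 11 were lower than arrays 8 and 9, giving an SD of 0.47 against 0.09 in AEM. The mean level of the leukocyte markers was also uneven, at 6.18 and 6.29 in spaceflight arrays 10 and 11 against 5.64 and 5.62 in arrays 8 and 9, and at 6.23 in AEM array 1 against 5.71 to 5.81 in the other 3. The part of leukocytes in the Klf4 values was not tested. The difference was -0.91 ± 0.18 (limma adjusted p = 0.00915). Probe set 1417395_at fell by 0.80 ± 0.18 (limma adjusted p = 0.0212), with its highest spaceflight value of 6.82 just under its lowest AEM value of 6.83. That second call was lost when any of AEM array 3, spaceflight array 10 or spaceflight array 11 was left out, with an adjusted p of up to 0.0691.

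**Figure D1:**
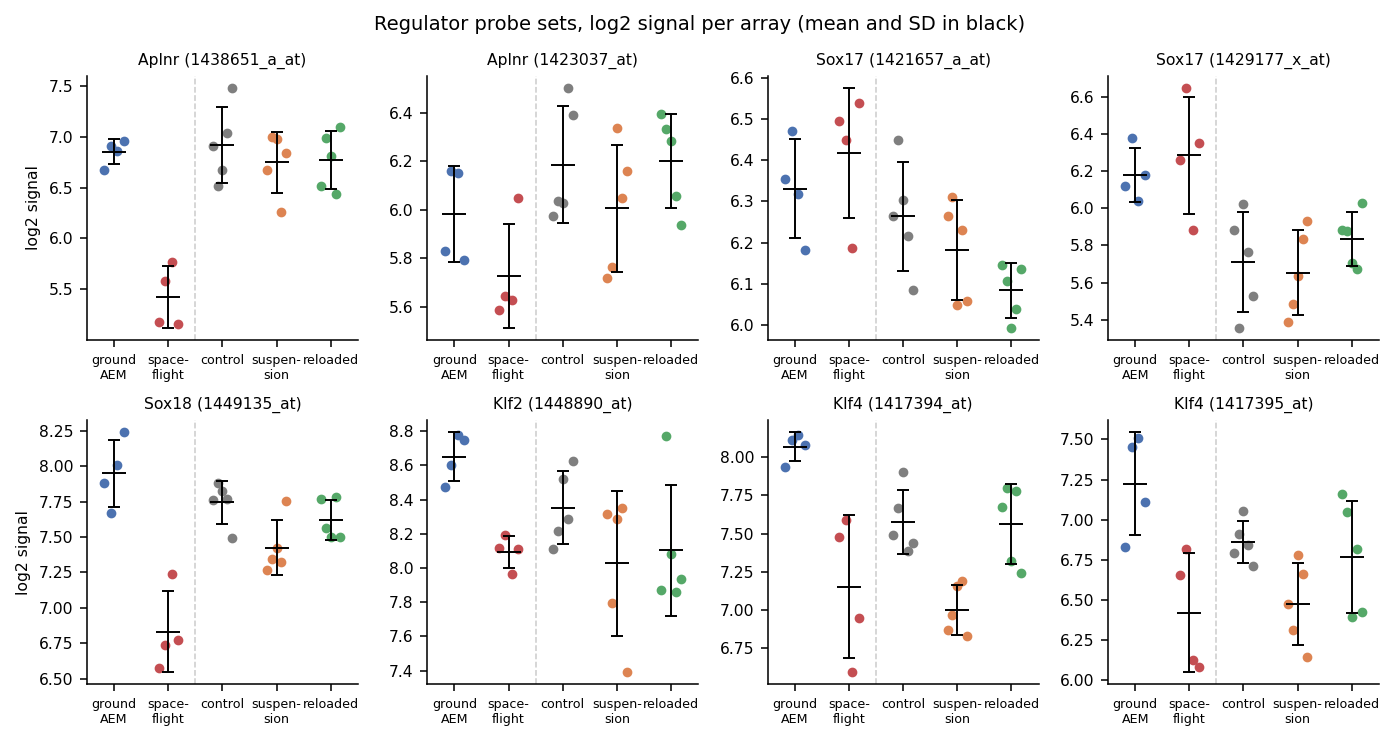
Log2 signal of the 8 regulator probe sets (y axis, a separate scale in each panel) on every array of the 5 groups (x axis), with the group mean and SD in black; the dashed line parts the gastrocnemius from the calf experiment. The spaceflight points of Aplnr 1438651_a_at, Sox18, Klf2 and both Klf4 probe sets lie under all AEM points, while those of Sox17 overlap.

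Among the identity receptors, Kdr read 7.63, 7.75, 7.86 and 7.66 in AEM arrays 1 to 4 and 7.39, 7.32, 7.40 and 7.50 in spaceflight arrays 8 to 11. The groups did not overlap, though the gap between them was narrow. The difference was -0.32 ± 0.08 (limma adjusted p = 0.0348). The call was lost in 6 of 8 fits that left out 1 array (without AEM 2, 3 or 4 or without spaceflight 8, 9 or 10), with an adjusted p of up to 0.103.

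Tek ran from 7.51 to 7.71 in AEM and from 7.36 to 7.52 in spaceflight, touching at 1 array of each group, and its difference of -0.21 ± 0.08 did not pass (limma adjusted p = 0.148). Tie1 ran from 6.96 to 7.20 in AEM and from 6.91 to 7.19 in spaceflight, a difference of 0.03 (95% interval -0.16 to 0.22). Pecam1 ran from 7.40 to 7.49 in AEM and from 7.37 to 7.60 in spaceflight, a difference of 0.07 (95% interval -0.10 to 0.23). Neither interval reaches the fitted fall of Kdr.

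Cdh5, the endothelial cadherin, had probe sets that gave opposite signs. Probe set 1433956_at ran from 6.73 to 7.17 in AEM and from 6.98 to 7.15 in spaceflight, a difference of 0.11 (95% interval -0.10 to 0.32). Probe set 1422047_at ran from 6.00 to 6.49 in AEM and from 5.83 to 6.08 in spaceflight, a difference of -0.30 ± 0.10 (limma adjusted p = 0.122). The pair did not track each other over the 23 arrays (r = -0.02, groups centred). The lower-signal probe set passed the test in the fit over all 23 arrays (limma adjusted p = 0.0483) and without AEM array 1 (limma adjusted p = 0.0462).

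Non-overlap of the groups was met by 6 of 14 member probe sets, the same 6 that were called, and by 12.9% of all tested probe sets. The members' non-overlapping probe sets were lower in spaceflight in each case.

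**Figure D2:**
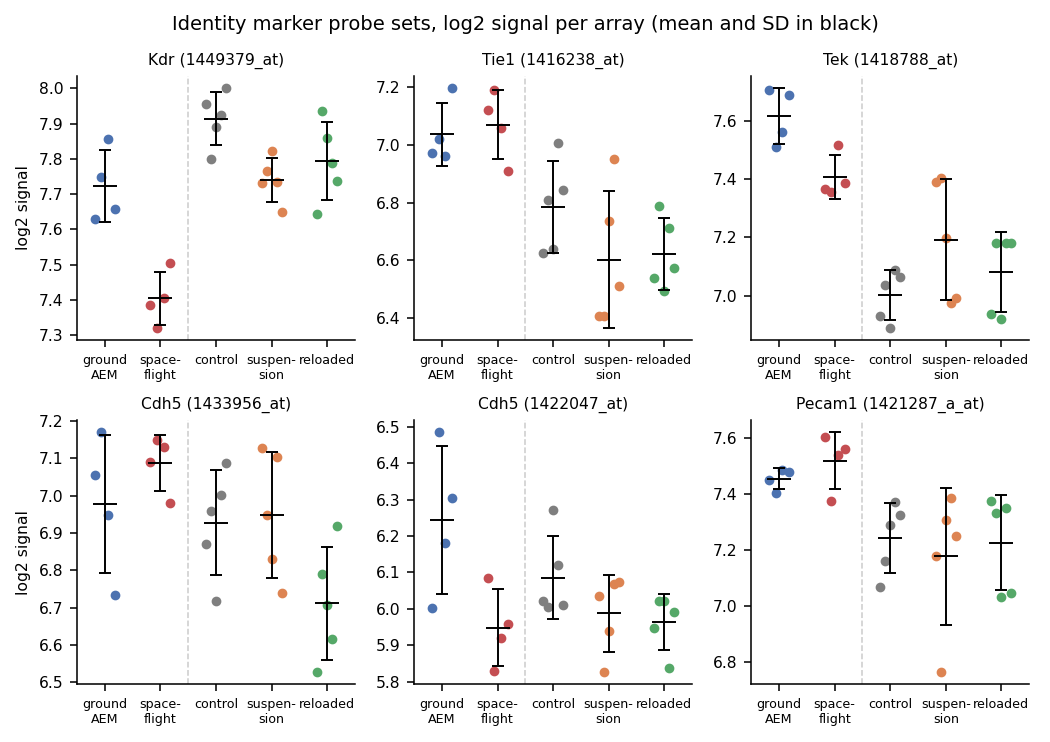
Log2 signal of the 6 identity probe sets (y axis, a separate scale in each panel) on every array of the 5 groups (x axis), with the group mean and SD in black. Kdr is the panel in which spaceflight (7.32 to 7.50) lies wholly under AEM (7.63 to 7.86); Tie1, Pecam1 and both Cdh5 probe sets overlap.

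To set the regulators beside the endothelial signal of the same array, the mean log2 signal of the 5 identity genes was subtracted, each gene by its brighter probe set. This is a description of the same values and was not tested. The identity mean itself was 7.36 ± 0.01 in AEM and 7.30 ± 0.03 in spaceflight (SD, n = 4 each). It ran from 7.35 to 7.37 in AEM and from 7.27 to 7.33 in spaceflight, so this mean was itself lower without overlap. Aplnr went from -0.51 ± 0.13 in AEM to -1.87 ± 0.29 in spaceflight relative to it, and no spaceflight array came above -1.56. Sox18 went from 0.59 ± 0.24 to -0.47 ± 0.27, and Klf4 from 0.71 ± 0.09 to -0.14 ± 0.48. Klf2 went from 1.29 ± 0.14 to 0.80 ± 0.12. For these 4 genes the AEM and spaceflight arrays did not overlap relative to the identity genes either. The identity mean stayed between 7.27 and 7.37 in both groups. The subtraction could therefore change little, and it adds no separate evidence. Before the subtraction 12.9% of all tested probe sets did not overlap in flight, and no such share was taken after it. The Aplnr part rests on the brighter Aplnr probe set alone, whose spaceflight values all lay under the filter value, so its size is uncertain. Sox17 ran the other way, from -1.03 ± 0.11 to -0.88 ± 0.18, with overlapping arrays.

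**Figure D3:**
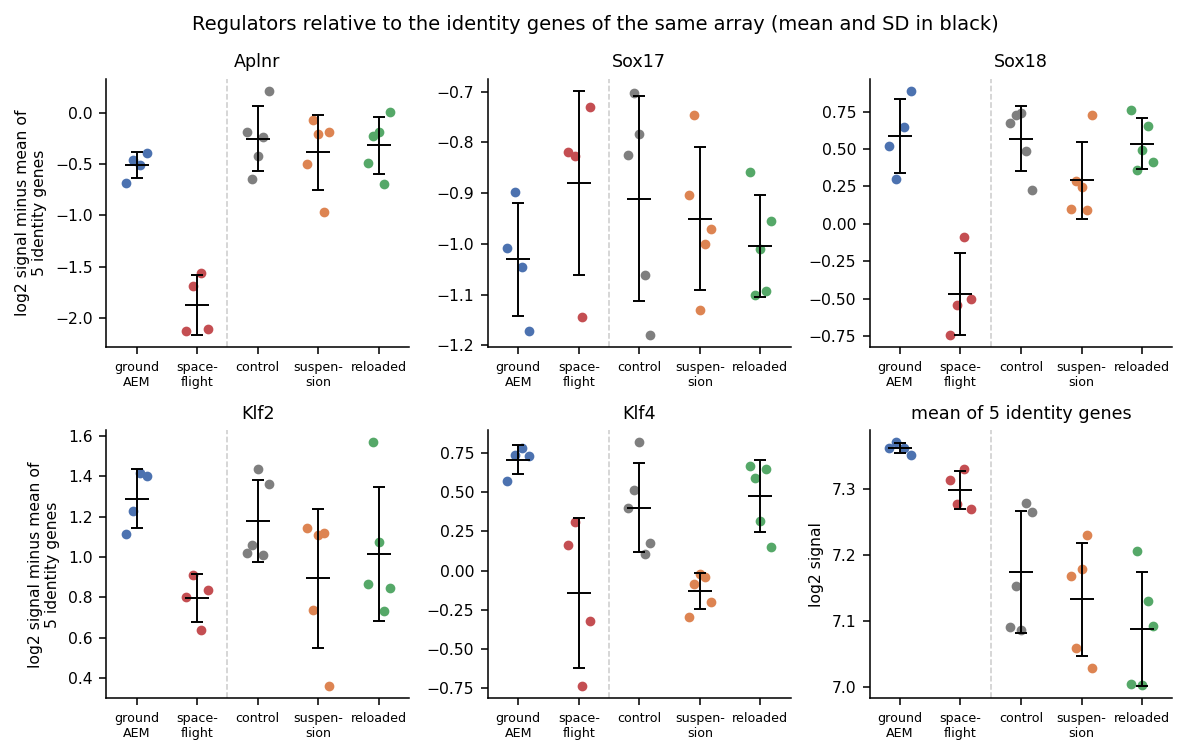
Log2 signal of each regulator minus the mean of the 5 identity genes on the same array (y axis), and that mean itself (last panel), for the arrays of the 5 groups (x axis) with mean and SD in black. Aplnr, Sox18, Klf2 and Klf4 lie lower in every spaceflight array than in any AEM array. The identity mean is also lower without overlap, at 7.27 to 7.33 in spaceflight against 7.35 to 7.37 in AEM.

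Calf muscle after suspension had less Klf4 signal than control muscle by 1 of 2 Klf4 probe sets, the only call among the 14 member probe sets. Over all probe sets 56 were called, 27 higher and 29 lower, which is 0.377%. The members' median difference was -0.17, against 0.00 over all tested. Klf4 1417394_at read 7.49, 7.66, 7.90, 7.39 and 7.44 in control arrays 1, 2, 19, 21 and 22. It read 6.87, 6.97, 7.16, 7.19 and 6.83 in suspension arrays 8, 9, 11, 25 and 30. The groups did not overlap, which 1.95% of all probe sets and no other member probe set achieved. Klf4 fell 1.49-fold, by 0.57 ± 0.12 on the log2 scale (limma adjusted p = 0.0414). The call was lost in 8 of 10 fits that left out 1 of these arrays (each of the 5 control arrays and suspension arrays 8, 9 and 30), with an adjusted p of up to 0.138, while the difference stayed between -0.62 and -0.49.

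The second Klf4 probe set gave -0.39 ± 0.14 with overlapping groups (6.15 to 6.78 in suspension, 6.71 to 7.06 in control) and did not pass (limma adjusted p = 0.407). Sox18 gave -0.32 ± 0.10 (7.27 to 7.76 in suspension, 7.49 to 7.88 in control, limma adjusted p = 0.275). Suspension array 30 alone kept the Sox18 groups overlapping, since the other 4 suspension values lay at or under 7.42. Klf2 gave -0.32 ± 0.18 (limma adjusted p = 0.668), with suspension arrays 9 and 30 at 7.80 and 7.39 and the other 3 from 8.29 to 8.35. For Aplnr the differences were -0.17 and -0.18, with 95% intervals of -0.53 to 0.18 and -0.45 to 0.09, so falls as large as the one in flight at 1438651_a_at lie outside the interval. Sox17 gave -0.08 and -0.06.

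Among the identity markers in suspension, Kdr gave -0.17 ± 0.07 (limma adjusted p = 0.478) and Tie1 -0.18 ± 0.11 (limma adjusted p = 0.678). Tek gave 0.19 ± 0.09 (limma adjusted p = 0.601), Cdh5 0.02 and -0.10, and Pecam1 -0.07. Their groups overlapped for each probe set.

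After 3.5 h of reloading Klf4 1417394_at stood higher than in suspension, and it was the only member probe set of the 14 to pass the test. Over all probe sets 86 were called, 83 higher and 3 lower, which is 0.579%. Reloaded arrays 14, 15, 16, 18 and 33 read 7.67, 7.80, 7.32, 7.78 and 7.24 for Klf4 1417394_at, each above the highest suspension value of 7.19. Such a separation was met by 1.43% of all probe sets. Klf4 rose 1.47-fold, by 0.56 ± 0.12 (limma adjusted p = 0.0343). Without reloaded array 14, 15 or 18 or suspension array 8, 9 or 30 the adjusted p was 0.0911 to 0.141, and the difference stayed at 0.50 or more.

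The second Klf4 probe set gave 0.29 ± 0.14 on reloading (limma adjusted p = 0.534), with reloaded arrays 16 and 33 at 6.40 and 6.43 inside the suspension range. Sox18 gave 0.20 ± 0.10 (limma adjusted p = 0.546). Klf2 gave 0.08 ± 0.18, and its reloaded array 15 at 8.77 stood apart from the others at 7.86 to 8.08. Aplnr gave 0.02 and 0.20, and Sox17 -0.10 and 0.18. Among the identity markers the differences ran from -0.24 for Cdh5 1433956_at (limma adjusted p = 0.462) to 0.05 for Kdr, and none passed.

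The reloaded and control groups did not differ for any member probe set by the test, where 50 of all probe sets did, which is 0.337%. At an unadjusted p under 0.05 there were 2 of 14 member probe sets, Sox17 1421657_a_at (-0.18) and Cdh5 1433956_at (-0.22), against 7.04% of all probe sets. Klf4 1417394_at gave -0.01 with a 95% interval of -0.27 to 0.24. The suspension, reloading and reloaded-against-control comparisons share their arrays, so the fall and the rise of Klf4 both rest on the same 5 suspension arrays and are not independent of each other.

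**Figure D4:**
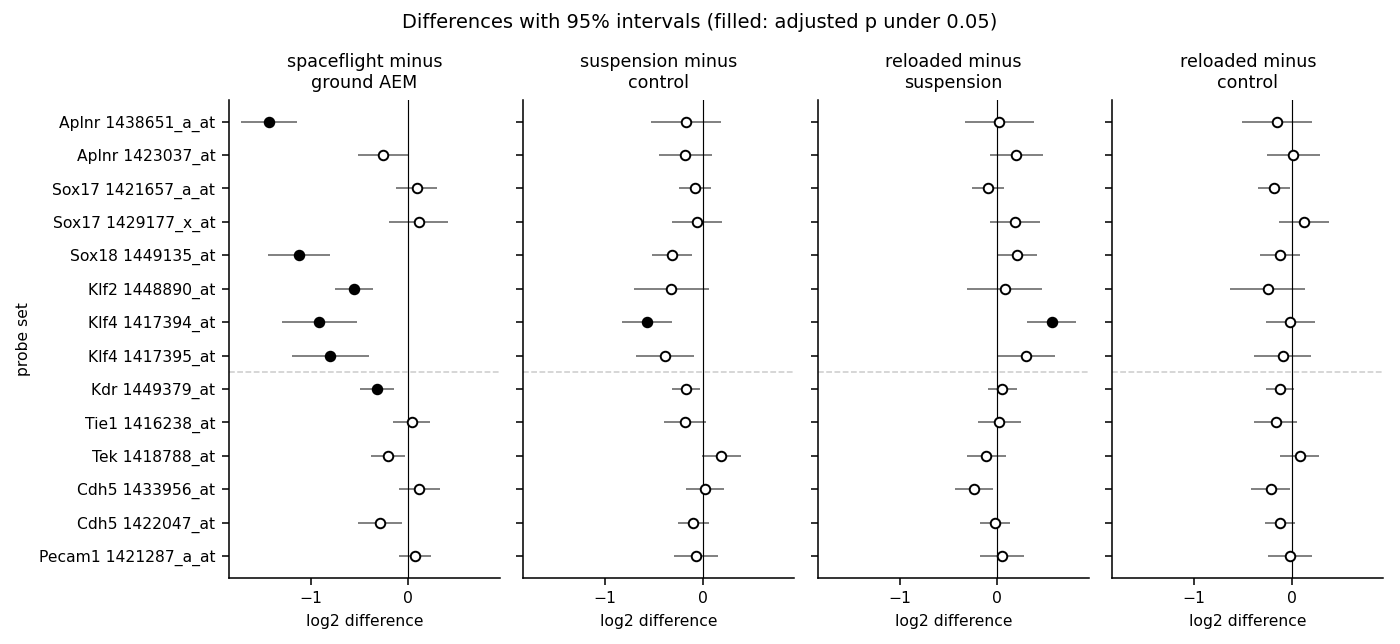
Log2 difference (x axis) with its 95% interval for the 14 member probe sets (y axis) in the 4 comparisons of groups, regulators above the dashed line and identity markers under it, with filled points for a limma adjusted p under 0.05. Flight has 6 filled points, all to the left of 0, and suspension and reloading have 1 each, both Klf4 1417394_at, on opposite sides of 0.

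Whether the flight effect differed from the suspension effect was tested in 1 fit over all 23 arrays, each effect taken within its own experiment. Flight effect minus suspension effect was -1.25 ± 0.24 for Aplnr 1438651_a_at (limma adjusted p = 0.00523) and -0.80 ± 0.18 for Sox18 (limma adjusted p = 0.0149). These were the 2 of 14 member probe sets called, against 1.58% of all probe sets. The other Aplnr probe set, 1423037_at, gave -0.08 (95% interval -0.47 to 0.32, limma adjusted p = 0.912). That interval does not hold the -1.25 of the first probe set, so the 2 Aplnr probe sets disagree here too. Its AEM mean of 5.98 lay close to the filter value, and which probe set reads Aplnr better was not tested. The size of the Aplnr 1438651_a_at value is uncertain here too, since its spaceflight arrays lay under the filter value, as did those of Meox2 and Icam2 in the tests of listed genes. For Klf4 1417394_at the difference of the effects was -0.34 (95% interval -0.79 to 0.11, limma adjusted p = 0.542), for Klf2 -0.23 (95% interval -0.73 to 0.27) and for Kdr -0.15 (95% interval -0.35 to 0.06). The intervals of these 3 genes hold 0 and also hold sizeable differences, so neither likeness nor unlikeness of their response was shown. The muscles, the control housing and the spread between the quartiles of an array differ between the experiments. These cannot be told apart from the difference between flight and suspension.

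Flight effect minus reloaded effect (reloaded against control) was -1.28 ± 0.24 for Aplnr 1438651_a_at (limma adjusted p = 0.00254), -0.998 ± 0.18 for Sox18 (limma adjusted p = 0.00111) and -0.90 ± 0.22 for Klf4 1417394_at (limma adjusted p = 0.02). That was 3 of 14 member probe sets, against 3.27% of all. The second Klf4 probe set gave -0.71 ± 0.24 and did not pass (limma adjusted p = 0.119), nor did Aplnr 1423037_at at -0.27 ± 0.19 (limma adjusted p = 0.593). Both tests use the same flight arrays.

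Reference promoters were read for the members to show what lies upstream of the regulators that moved. Of the 10 genes, 5 had an entry in the RefSeq promoter table of build GRCm38.p6 (Klf2, Klf4, Kdr, Tie1 and Tek). The 250 bases before the start of Klf2 (chr8:72318812-72319061, plus strand), Klf4 (chr4:55532476-55532725, minus strand) and Kdr (chr5:75978456-75978705, minus strand) are given 5′ to 3′, as the 3 matched genes called in flight.
Klf2: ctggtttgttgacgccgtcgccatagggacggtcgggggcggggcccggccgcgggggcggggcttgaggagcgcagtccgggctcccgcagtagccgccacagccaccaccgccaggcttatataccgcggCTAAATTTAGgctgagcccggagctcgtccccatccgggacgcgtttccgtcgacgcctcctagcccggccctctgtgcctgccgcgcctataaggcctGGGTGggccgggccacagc
Klf4: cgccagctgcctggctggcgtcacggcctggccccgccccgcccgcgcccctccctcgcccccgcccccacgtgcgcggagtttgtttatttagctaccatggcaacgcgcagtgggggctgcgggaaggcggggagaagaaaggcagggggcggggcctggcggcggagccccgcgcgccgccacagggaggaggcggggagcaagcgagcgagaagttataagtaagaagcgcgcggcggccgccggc
Kdr: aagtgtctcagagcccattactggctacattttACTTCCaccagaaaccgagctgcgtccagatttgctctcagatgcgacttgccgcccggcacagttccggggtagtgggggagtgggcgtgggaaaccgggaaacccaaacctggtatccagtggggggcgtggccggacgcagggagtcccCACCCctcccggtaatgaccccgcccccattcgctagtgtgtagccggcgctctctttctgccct
Capitals mark motif matches. In Klf2 they are the MEF2 consensus, 118 to 109 bases before the start, and the KLF core CACCC read on the minus strand, 19 to 15 bases before it. In Kdr they are the ETS core GGAAGT read on the minus strand, 217 to 212 bases before the start, and CACCC, 65 to 61 bases before it.

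Motifs were searched on both strands of these windows and of 32851 promoter windows of the same length. CACCC lay in 52.0% of all windows, the SOX core ACAAT in 27.7%, GGAAGT in 19.7% and the MEF2 core TATTTATA in 1.56%. The MEF2 consensus, which the shorter MEF2 core overlaps, lay in 2.92%, and it was added after the core had been seen to have no match in the 5 members. In Klf4 none of these motifs was present. Tek held ACAAT at 2 places, Tie1 held GGAAGT and CACCC, and no other member window held a SOX core. The GC content was 71.2% for Klf2, 74.0% for Klf4 and 61.6% for Kdr. A match is a string of letters and says nothing of a factor bound there.

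Genes around the members were followed in lists of pathway and cell type genes, each gene by its brightest probe set on average. The lists too were chosen with earlier results of these data known. In flight, the other endothelial transcription factors had 4 of 18 tested genes lower and none higher, where 6.36% of all probe sets were called. Their median was -0.25, against -0.02 over all probe sets. Sox7, the third SoxF factor, fell by 0.79 ± 0.07 (limma adjusted p = 0.000167), from 6.89 to 7.02 in AEM to 6.12 to 6.21 in spaceflight. The ETS factor Fli1 fell by 0.48 ± 0.09 (limma adjusted p = 0.00516). The other 2 had spaceflight values wholly under the filter value of 5.83, so that only a bound on their size is given. Meox2, a homeobox factor of muscle endothelium, ran from 6.02 to 6.29 in AEM and from 5.17 to 5.57 in spaceflight, at least 1.26-fold lower (limma adjusted p = 0.000643). The ETS factor Elk3 was at least 1.41-fold lower (limma adjusted p = 0.00123), and its second tested probe set gave -0.13 (limma adjusted p = 0.542). Of the SoxF family, then, Sox18 and Sox7 fell in flight and both Sox17 probe sets did not pass the test.

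The next 3 lists each had a single called gene, a share not far from the 6.36% of all probe sets, so these are results about the genes and not about the lists. Of the ligands and co-receptors 1 of 9 tested genes was lower, Vegfa, the ligand of Kdr, at -0.59 ± 0.13 (limma adjusted p = 0.0151), from 8.41 to 9.02 in AEM to 7.96 to 8.25 in spaceflight. The apelin gene Apln, which codes for the Aplnr ligand, gave -0.10 ± 0.10 (limma adjusted p = 0.653). Of the genes of the flow pathway 1 of 14 was lower. Thbd, thrombomodulin, an anticoagulant receptor that Klf2 and Klf4 are known to induce, fell by 0.60 ± 0.08 (limma adjusted p = 0.000724), from 7.57 to 7.65 in AEM to 6.88 to 7.10 in spaceflight. Nos3, the endothelial nitric oxide synthase and another known target, gave -0.28 ± 0.09 (limma adjusted p = 0.104), and the kinase genes Map2k5 and Mapk7 gave -0.17 and -0.10 without passing. In the arterial and Notch list 1 of 9 was lower, the venous receptor Ephb4 at -0.30 (limma adjusted p = 0.0263).

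The KLF family divided in flight, where 6.36% of all probe sets were called in either direction. While Klf2 and Klf4 fell in flight, 3 of 11 other tested KLF genes rose and none fell: Klf10 by 0.90 ± 0.15 (limma adjusted p = 0.004), Klf15, a regulator of muscle metabolism, by 0.76 ± 0.11 (limma adjusted p = 0.00143), and Klf9 by 0.40 ± 0.09 (limma adjusted p = 0.0172). Other tested Klf9 probe sets gave 0.05 to 0.69, and not all of them passed. In the calf comparisons none of these 3 passed.

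Further endothelial markers were lower for 2 of 20 tested genes in flight. That share is not far from the 6.36% of all probe sets, so it is not a result about the list. The 2 genes were the adhesion molecule Icam2 (at least 1.28-fold, its spaceflight values lying under the filter value, limma adjusted p = 0.00278) and the surface receptor Cd93, by 0.50 ± 0.07 (limma adjusted p = 0.00188). The median of the list was -0.15, and its mean level ran from 7.48 to 7.67 in AEM and from 7.49 to 7.55 in spaceflight. Differences of the 20 ran from -0.56 to 0.32, with 12 under 0 and 8 over 0.

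Markers of other cells of muscle were read beside these results, where 6.36% of all probe sets were called in flight. Of the pericyte and smooth muscle markers 0 of 11 were called by limma in flight (median -0.08), and of the leukocyte markers 0 of 8 (median -0.02), with the uneven levels between arrays given above for Klf4. Of the lymphatic markers 2 of 5 could be tested and neither was called, and the defining markers Lyve1 and Prox1 did not pass the filter. Of the myofibre markers 0 of 10 were called, and of the platelet and red cell markers 1 of 5 (Alas2 at -0.28, limma adjusted p = 0.0421). Fibroblast markers had 3 of 7 lower, all collagens (Col1a1 at -0.99, Col1a2 at -0.73 and Col3a1 at -0.61), with mean levels of 8.98 to 9.65 in AEM and 8.81 to 9.19 in spaceflight. The groups overlapped for all 3 collagens. In suspension these collagens gave -1.13, -0.75 and -0.58 without passing the test. Adipocyte markers had 5 of 8 higher, led by Cidec at 1.67 and Adipoq at 1.44, and their mean level ran from 8.48 to 8.67 in AEM and from 9.14 to 9.43 in spaceflight. The immediate-early genes, which respond within minutes to stress or handling, had 4 of 15 higher in flight (Btg2 at 1.65, Zfp36 at 1.58, Maff at 1.31 and Jun at 0.61). The Maff groups overlapped, and a second Jun probe set gave 0.14 (limma adjusted p = 0.412). The part of adipocyte, fibroblast and immediate-early genes in the members' differences was not tested.

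In the suspension, reloading and reloaded-against-control comparisons the pathway lists and the lists of cell type markers had no called gene by limma beside the Klf4 calls. Thbd came near, at 0.39 ± 0.10 on reloading (limma adjusted p = 0.0918) and 0.41 ± 0.10 in reloaded against control muscle (limma adjusted p = 0.087). Immediate-early genes were the exception, though 0 of 15 were called on suspension. On reloading 5 of 15 rose (Atf3 by 2.23, Fos by 1.69, Jun by 1.17, Btg2 by 1.01 and Jund by 0.42). In reloaded against control muscle 2 of 15 were higher. Of all probe sets 0.377%, 0.579% and 0.337% were called in these comparisons, in the same order. By 1 of 2 probe sets Klf4 thus rose on reloading beside immediate-early genes. In flight, where Btg2 and 1 of 2 Jun probe sets were higher, both Klf4 probe sets were lower. The part of immediate-early genes in the Klf4 result was not tested.

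Effects in flight and in suspension differed by the test for Sox7 (-0.81, limma adjusted p = 0.00207), Meox2 (-0.73, limma adjusted p = 0.0192) and Thbd (-0.62, limma adjusted p = 0.0107). They also differed for Nr2f2, a factor of venous identity (-0.54, limma adjusted p = 0.0117). Nr2f2 was itself called neither in flight (-0.29, limma adjusted p = 0.0531) nor in suspension (0.25, limma adjusted p = 0.332). Against the reloaded effect the flight effects differed for Thbd (-1.02, limma adjusted p = 4.28e-05), Sox7 (-1.02, limma adjusted p = 9.76e-05) and Meox2 (-1.06, limma adjusted p = 0.00029). The same held for Vegfa (-0.56, limma adjusted p = 0.0304) and Icam2 (-0.55, limma adjusted p = 0.019). Klf15 differed the other way, by 0.63 from the suspension effect (limma adjusted p = 0.0484) and by 0.93 from the reloaded effect (limma adjusted p = 0.00113). So did adipocyte markers. Cidec differed by 1.14 from the suspension effect (limma adjusted p = 0.011). From the reloaded effect Cidec differed by 1.38 (limma adjusted p = 0.00104) and Adipoq by 1.10 (limma adjusted p = 0.0451). Lep differed from it by 0.75 (limma adjusted p = 0.0207) and Lipe by 0.58 (limma adjusted p = 0.0351). Sox18 and Aplnr 1438651_a_at, but not the other Aplnr probe set, thus stood with Sox7, Meox2 and Thbd among the genes whose flight effect was lower than both calf effects by the test.

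**Figure D5:**
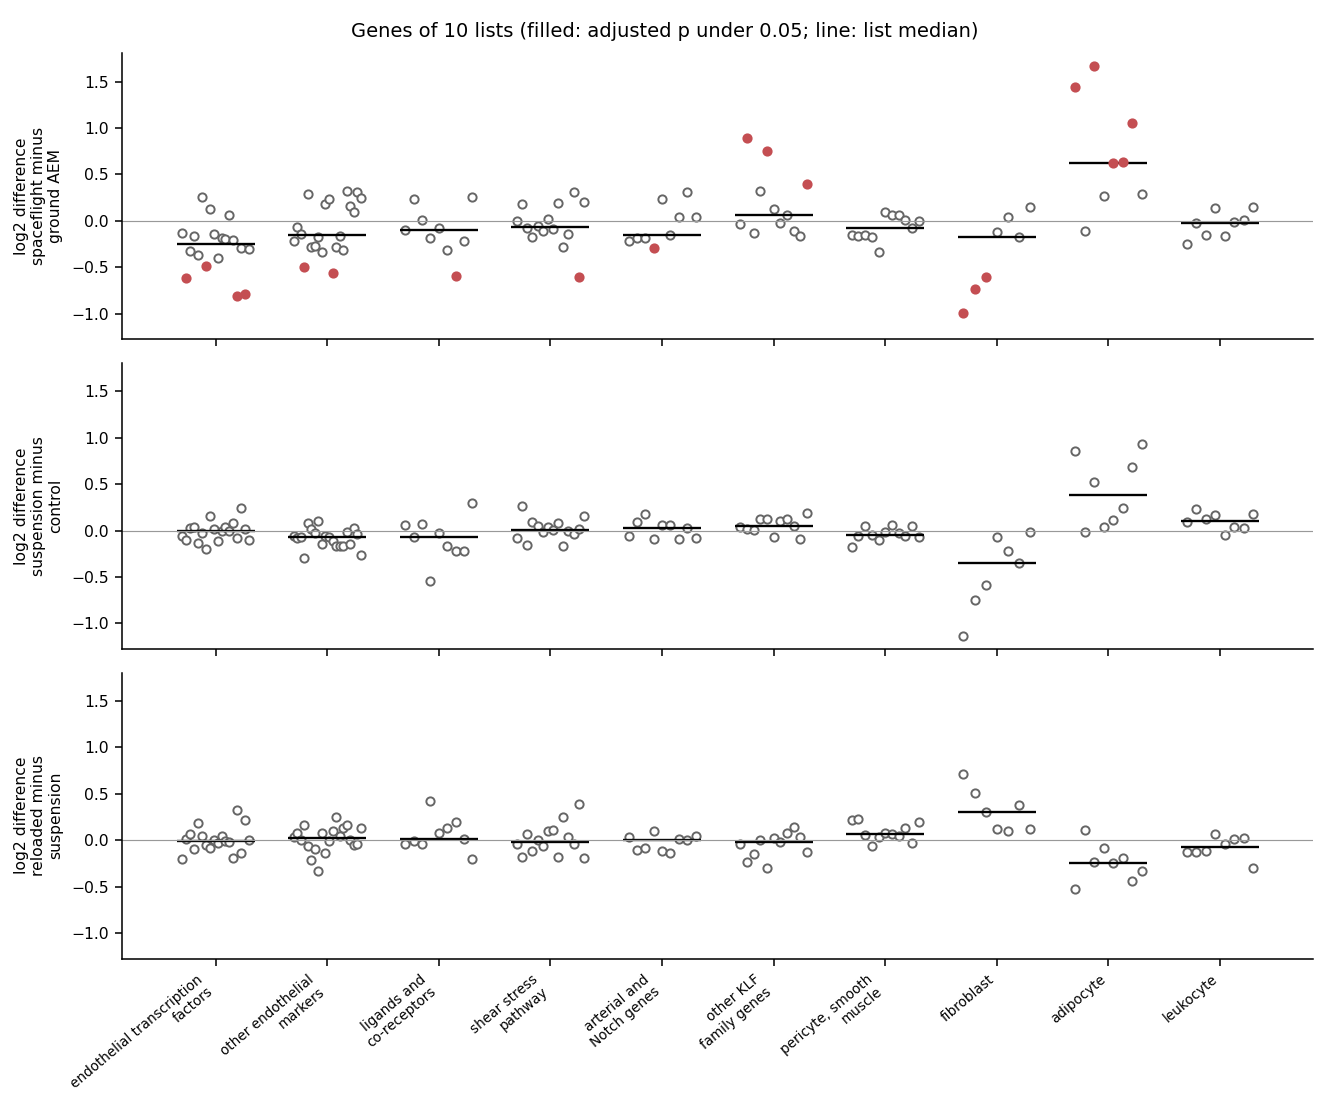
Log2 difference (y axis) of each tested gene of 10 lists without the member genes (x axis) in flight, suspension and reloading; filled points passed the limma test, and black lines are list medians. In flight 4 endothelial factors are filled under 0, 3 KLF genes and 5 adipocyte genes are filled over 0, and the calf panels have no filled point.

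For each regulator the genes most like it were found by Pearson's r over the 23 arrays after each experiment was centred on its own mean, among 9123 genes. These values include the differences between groups, are descriptions, and carry no test. Aplnr was most like Metrnl (r = 0.81), Ilk (0.78), Tcf15 (0.78), Meox2 (0.78) and Steap3 (0.77). Sox18 was most like Sh3d19 (0.87), Lasp1 (0.86), Serpinh1 (0.83), Trim47 (0.83) and Sox7 (0.82). Klf2 and Klf4 had the same nearest gene, Id1, a target of BMP signalling in endothelium, at r = 0.77 and 0.83. Sox17 had no gene nearer than Sphk1 at r = 0.72.

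Among the members themselves Aplnr and Sox18 had r = 0.73 with each experiment centred, but -0.05 with each group centred. Klf2 and Klf4 had 0.61 and 0.37 by the same measures, and Aplnr and Kdr 0.74 and 0.33. The likeness of Aplnr and Sox18 was thus one between groups, and within groups their values did not track each other.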

How the data were processed

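RNA from 23 muscle samples was hybridised to Affymetrix mouse arrays, 1 per sample. The deposited table holds 1 log2 expression value per probe set and array. The submitters' processing notes name RMA and MAS5, and the sources used here give neither their role nor their versions. No read depth applies, and the number of arrays limits the precision.

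Control probe sets (64) were left out. Probe sets were named from the platform annotation, which gave 1 symbol to 20380 probe sets, several to 691 and none to 1555. Those above the 40th percentile (log2 5.83) on at least 4 arrays were tested with limma 3.58.1 in R 4.3.3 (lmFit and eBayes, two-sided, Benjamini-Hochberg over 14849 probe sets, called at 0.05). The 8 flight arrays and the 15 calf arrays were fitted separately, and the differences of effects on all 23. The fit was tested on simulated data. Alternatives covered the filter, centring, array weights, array range, 1 probe set per gene and single arrays left out. Every member probe set was named, whether called or not. Of the lists, called genes were named, at most 6 per comparison by size. Apln, Nos3, Map2k5 and Mapk7, which did not pass, were named after their values were seen. Members and lists were chosen with earlier results of these data known.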

Additional observations from a re-analysis of the deposited data

Results flagged for a closer look

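On 2 of the 70 member probe sets by group that were checked, 1 array stood apart from the rest of its group, where chance gives about 1 in 20. For Aplnr 1423037_at, spaceflight array 11 read 6.05 while the other 3 read 5.59 to 5.64, a gap of 0.874 of the group's range. For Klf2, reloaded array 15 read 8.77 while the other 4 read 7.86 to 8.08, a gap of 0.761 of the range.

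The flight effect differed from the suspension effect by the limma test for Aplnr 1438651_a_at (-1.25) and Sox18 (-0.80). It differed from the reloaded effect for Aplnr 1438651_a_at (-1.28), Sox18 (-0.998) and Klf4 1417394_at (-0.90).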

How the results depend on the processing

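The flight falls of Aplnr 1438651_a_at, Sox18 and Klf4 1417394_at were called in 17 of 17 alternatives, with ranges of -1.54 to -1.34, -1.26 to -1.02 and -1.06 to -0.73. Klf2 was called in 16 of 17, Klf4 1417395_at in 12 of 16 and Kdr in 9 of 17. The count of 6 member probe sets in flight ran from 4 to 7 when 1 array was left out. It was 4 with the array's interquartile range as a covariate (Kdr adjusted p = 0.108, Klf4 1417395_at 0.0566) and 5 with arrays centred on their median (Kdr 0.0569).

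The count for suspension was 0 instead of 1 with array weights (Klf4 -0.49, limma adjusted p = 0.119), with all 23 arrays in 1 fit (0.0923), and without suspension arrays 8 and 9 (-0.52, 0.231), and 0 to 1 with 1 array left out. The count for reloading was 0 instead of 1 with the array range as a covariate (0.52, limma adjusted p = 0.0629), with all 23 arrays in 1 fit (0.0885), with only the 2 groups (0.0611) and without suspension arrays 8 and 9 (0.50, 0.27), and 0 to 1 with 1 array left out. The cause of these losses was not tested. The reloaded muscle had no called member against control in any alternative run.

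With the flight groups exchanged, as their descriptions read, the members called were 6 and 5 instead of 2 and 3, and the differences from the suspension effect became 1.60 for Aplnr and 1.44 for Sox18. Those from the reloaded effect became 1.58 for Aplnr, 1.24 for Sox18 and 0.93 for Klf4. The 2 and 3 members kept their calls in every other alternative run.

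Over all probe sets the flight count of 945 was 515 with 1 probe set per gene, 626 with the array range, and 565 to 1007 with 1 array left out (565 without AEM 3, 614 without AEM 4, 588 without spaceflight 9). Suspension's 56 was 34 per gene, 8 without suspension arrays 8 and 9, and 14 to 70 with 1 array left out. Reloading's 86 was 53 per gene, 54 without those arrays, and 58 to 104. The 50 of reloaded against control was 29 per gene, 134 with array weights, 98 with the array range, 86 with only the 2 groups, and 24 to 64. The differences of effects, 234 and 486, were 116 and 250 per gene, 969 for the first with flight groups exchanged, and 780 for the second with array weights. Of the listed genes named in flight, Sox7, Meox2, Elk3, Fli1, Vegfa, Thbd and Klf15 were called in 16 of 16 alternatives. So were Icam2, Cd93, Cidec, Adipoq, Btg2, Zfp36 and Jun. Klf10 was called in 15, Maff in 12 (limma adjusted p up to 0.106), Klf9 in 11 and Ephb4 in 10. Col1a1 was called in 8, Col3a1 in 7, Col1a2 in 5 and Alas2 in 5. The stricter filter at the 60th percentile (log2 6.74) was not among these 16. No array reached that value for Meox2, Elk3, Fli1 or Icam2, so it would have left the probe sets used for them untested.

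No paired analysis was possible because the groups compared share no replicate numbers in the labels.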
